A study of Mus musculus with 48 samples.

Results

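The genes described here are 7 transcripts that mark hepatocytes of the portal side of the liver lobule: Cyp2f2, Cdh1, Hsd17b13, Hsd17b6, Ctsc, Aldh1b1 and Pigr. The rule takes them by gene name, as 7 of the 49315 genes in the table, and sets no threshold on their values; the names were proposed with earlier results of these data known. The model was fitted to the 15820 genes that passed a filter on low values, and all 7 passed, each with a TPM of at least 1 in 48 of 48 libraries. TPM is the share that a gene's transcripts take of all transcripts in a library, corrected for gene length and set to a fixed total. The study measured poly(A) RNA of whole liver from C57BL/6J mice and asked how a mixture of dioxin-like compounds acts on the liver in each sex and on each diet. The 8 groups of 6 livers were males and females that ate either a low fat diet (LFD) or one high in fat (HFD) and were given vehicle or the mixture. Mixture groups received TCDD at 10 ng/kg, PeCDF at 80 ng/kg and PCB126 at 140 ng/kg each week for 12 weeks, and vehicle groups received none of the 3. All groups share the strain, and no source used here gives the ages of the mice.

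Blood enters the lobule at the portal tract and leaves at the central vein, and hepatocytes express different genes along that path. Periportal hepatocytes are known for urea synthesis, gluconeogenesis, amino acid breakdown and protein secretion, and pericentral hepatocytes for glutamine synthesis and much of xenobiotic metabolism. Zonation is held by oxygen, hormones and Wnt signals, and in rodents several liver genes also differ between the sexes through growth hormone and STAT5b. Whole-liver RNA holds no position, so the portal location of the 7 genes is background and could not be checked in these libraries. Bulk RNA also cannot tell fewer cells of a type apart from less RNA per cell.

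The 7 genes cover several roles. Cyp2f2 is a cytochrome P450 known for activating naphthalene. Aldh1b1 is a mitochondrial aldehyde dehydrogenase, Hsd17b13 is a lipid droplet protein, and Hsd17b6 is an oxidoreductase of steroid and retinoid metabolism. Cdh1 is E-cadherin, the adhesion protein of epithelial junctions. Pigr is the polymeric immunoglobulin receptor, which carries IgA across epithelia into bile, and Ctsc is cathepsin C, a lysosomal protease that activates serine proteases of immune cells. All are protein-coding genes on GRCm38: Cyp2f2 (ENSMUSG00000052974) at chr7:27119909-27133660 on the plus strand, Aldh1b1 (ENSMUSG00000035561) at chr4:45799022-45804604 plus, Hsd17b13 (ENSMUSG00000034528) at chr5:103955440-103977410 minus, Hsd17b6 (ENSMUSG00000025396) at chr10:127990936-128007611 minus, Cdh1 (ENSMUSG00000000303) at chr8:106603351-106670246 plus, Pigr (ENSMUSG00000026417) at chr1:130826684-130852249 plus and Ctsc (ENSMUSG00000030560) at chr7:88278085-88310888 plus. Antisense genes overlap Cyp2f2 (Gm15883, mean 16.2 TPM) and Ctsc (Gm26522, mean 0.679 TPM). No source used here says whether the counting used strand, so reads of these pairs may not have been told apart.

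Between libraries, Cdh1 had the widest range and Hsd17b13 the narrowest of the 7. Cdh1 spanned 2.43 to 42.7 TPM over the 48 libraries, a 17.6-fold range, and its group means differed up to 5.0-fold. Hsd17b13 had a 2.34-fold range over libraries and group means that differed up to 1.55-fold. By mean level per length, Cyp2f2 stood at percentile 99.3 of the genes tested, Pigr at 99.0 and Cdh1 at 66.6.

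Among the libraries, 3 held over 1000 TPM of 15 skeletal muscle genes: 1 male HFD mixture library (24468 TPM), 1 female LFD vehicle library (9145 TPM) and 1 female LFD mixture library (1931 TPM). The last also held 1319.7 TPM of 6 adrenal cortex genes. The other libraries held at most 777 TPM of the muscle genes. Results were recomputed without the 3 libraries, and values that moved past the limits set here are given beside the result. Summed markers of hepatocytes were lower on HFD than on LFD: the medians of 10 such genes in vehicle males were 122849.8 TPM on LFD and 83352 TPM on HFD, and in vehicle females 145583 and 96975 TPM. By the test described below, 0 of the 10 genes were higher and 7 lower on HFD in vehicle males (median log2 difference -0.48). In vehicle females 1 was higher and 5 were lower (median -0.21). The part of these markers in the diet results was not tested.

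**Figure D1:**
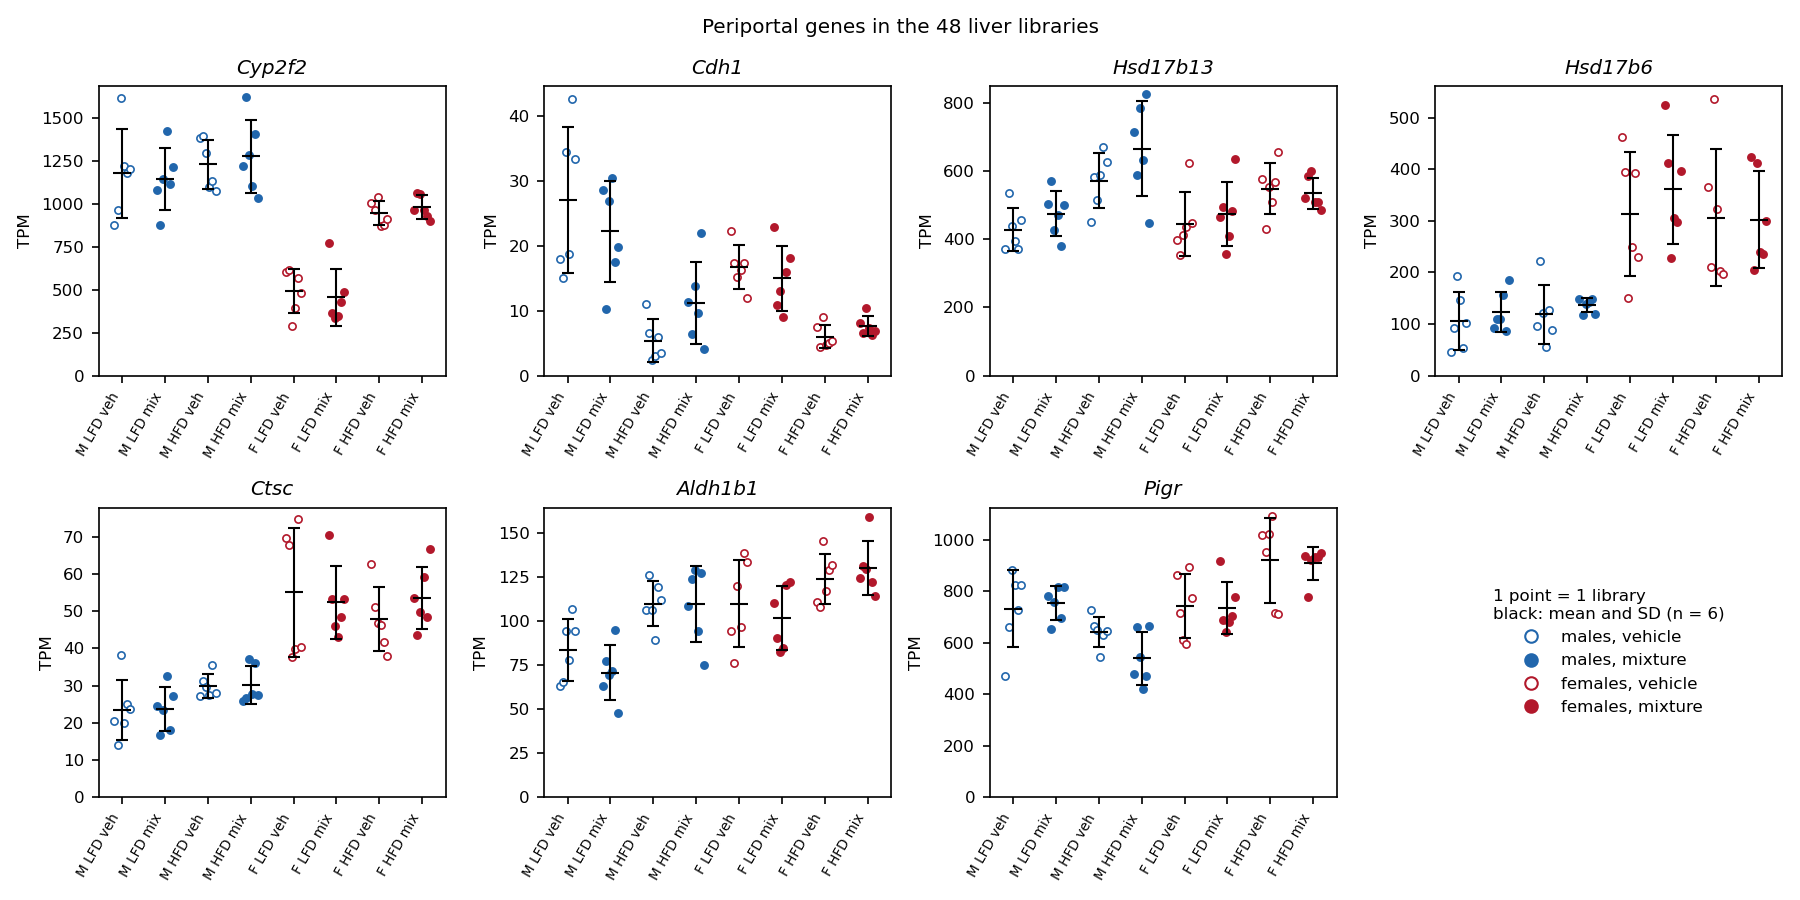
Each panel plots 1 periportal gene in TPM, with 1 point for each of the 48 libraries (open for vehicle, filled for mixture; blue for males, red for females) and black bars for the group mean and SD (n = 6). Cdh1 was lowest on HFD (group means of 5.40 to 11.2 TPM), Cyp2f2 was lowest in LFD females (456 and 493 TPM), and the means of Hsd17b6 and Ctsc were higher in all 4 female groups than in any male group.

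Differences are given as the first group minus the second on the log2(TPM + 1) scale, which understates changes of low genes, and were tested with limma over all genes at a Benjamini-Hochberg adjusted p of 0.05. SE is the standard error of the difference, with 6 livers in each group. The labels name each library as a replicate and give no cage or batch, so each p-value speaks only to the spread among the libraries at hand. A gene's groups are said not to overlap where every library of 1 group lies beyond every library of the other.

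The first comparison was mixture against vehicle within each sex and diet. None of the 7 genes passed the test in any of the 4 strata or in their mean. Over all genes, limma called 0.0379% in LFD males, 0.0948% in HFD males, 0.0379% in LFD females, 0.0126% in HFD females and 0.0948% for the mean of the 4. At an unadjusted p under 0.05, 2 of the 7 genes, Cdh1 and Pigr, stood in HFD males, where 9.39% of all genes did, and 0 elsewhere. Calls of all genes in HFD males depended on the muscle-rich libraries: 15 genes were called with all libraries and 47 without the 3 libraries over 1000 TPM. For comparison, Cyp1a2, a pericentral P450 and a known target of the aryl hydrocarbon receptor that dioxins activate, rose in the same fit by 2.24 (SE 0.13, adjusted p = 3.25e-17) in LFD males and by 2.63 (SE 0.13, adjusted p = 1.18e-19) in HFD females.

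Cdh1 showed the largest of the 7 values for the mixture, in HFD males. The 6 vehicle libraries had a lowest value of 2.43, a median of 4.72 and a highest of 11.1 TPM. The 6 mixture libraries had a lowest value of 4.05, a median of 10.5 and a highest of 21.9 TPM. The mixture group was higher on average and the groups overlapped. Its difference of 0.91 (SE 0.29, 95% interval 0.32 to 1.5) had an unadjusted p of 0.00332 and an adjusted p of 0.281 in limma. Without the 3 libraries over 1000 TPM of muscle genes the difference was 1.13 (adjusted p = 0.0747). Bile duct genes were higher on average in the same mixture group: the summed level of 12 such genes ranged from 272 to 378 TPM with vehicle and from 275 to 836 TPM with the mixture, and Epcam differed by 0.72 (SE 0.26, adjusted p = 0.36). Of the 9 tested, 0 passed, with a median difference of 0.39. None of the 12 was at 0 throughout a group, and their part in the Cdh1 value was not tested. In the other strata Cdh1 differed by -0.25 in LFD males, -0.19 in LFD females and 0.32 in HFD females, none of them past the test. The difference between diets in the response of males was 1.16 (SE 0.41, adjusted p = 0.494).

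None of the other 6 genes passed the test in any stratum. Over the mean of the 4 strata the 95% interval was -0.17 to 0.15 for Cyp2f2, -0.18 to 0.08 for Pigr, -0.22 to 0.08 for Aldh1b1, -0.13 to 0.22 for Ctsc, -0.03 to 0.24 for Hsd17b13 and -0.07 to 0.54 for Hsd17b6. Pigr in HFD males differed by -0.27 (SE 0.13, unadjusted p = 0.0395, adjusted p = 0.503 in limma). Mean Pigr was 643 ± 58.6 TPM (SD, n = 6) with vehicle and 540.0 ± 103 TPM with the mixture there. The response to the mixture was also compared between diets, and 0 of the 7 genes passed in males or in females, where limma called 0.00632% of all genes in each sex. At an unadjusted p under 0.05, 1 of the 7 (Cdh1) stood in males, where 7.32% of all genes did, and 0 in females.

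**Figure D2:**
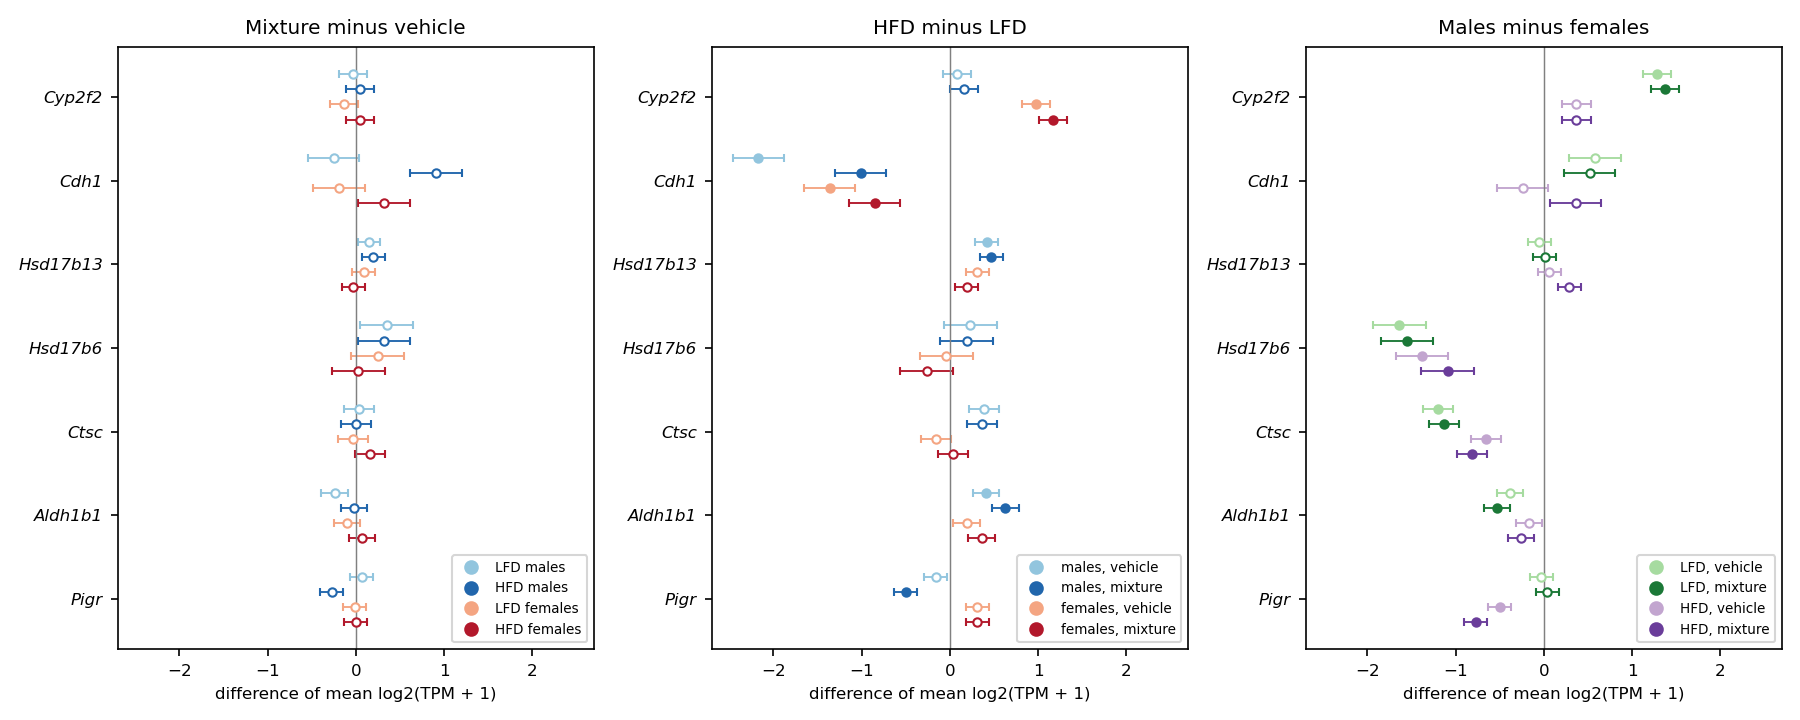
The 3 panels plot, for each periportal gene, the difference of mean log2(TPM + 1) for mixture minus vehicle, HFD minus LFD and males minus females; points are the 4 strata of each comparison, bars are the SE, and filled points passed limma's test. No point is filled for the mixture, while Cdh1 is filled for diet in all 4 strata (-2.17 to -0.85) and Hsd17b6 and Ctsc are filled for sex in all 4.

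The second comparison was HFD against LFD within each sex and exposure. Some numbers in the library names occur on both diets. No source used here says if LFD and HFD animals formed separate cohorts, so cohort and diet cannot be told apart. With TPM as deposited, limma called Cdh1 lower on HFD in all 4 strata and Cyp2f2 higher in both female strata. It called Aldh1b1 and Hsd17b13 higher in both male strata, and Pigr lower in mixture males. Under the trimmed-mean scaling described below, both Hsd17b13 calls and the Aldh1b1 call in vehicle males were lost. The diet responses of Aldh1b1 and Hsd17b13 did not differ between the sexes past the test. In vehicle males 3 of the 7 genes were called (31.4% of all genes), 2 higher (25.6%) and 1 lower (5.82%). In vehicle females 2 were called (28.0%), 1 higher (14.4%) and 1 lower (13.5%). In mixture males 4 were called (38.6%), 2 higher (31.7%) and 2 lower (6.92%). In mixture females 2 were called (19.2%), 1 higher (11.5%) and 1 lower (7.74%).

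These shares move with the scaling of the libraries in some comparisons. TPM were kept as deposited, and the median difference of all genes was 0.11 in vehicle males and 0.15 in mixture males. With a trimmed-mean scaling between libraries the medians became 0.01 and -0.02, and the share of called genes that was higher moved from 81.5% to 56.8% in vehicle males and from 82.1% to 46.0% in mixture males. In the comparisons of the sexes that share moved from 27.9% to 50.3% for LFD vehicle, from 22.9% to 58.6% for LFD mixture and from 63.7% to 45.0% for HFD mixture. It moved from 81.0% to 56.7% and from 78.5% to 38.6% for the difference in diet response between the sexes, with vehicle and with the mixture.

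Cdh1 had the largest diet difference of the 7 in vehicle males, vehicle females and mixture males, and Cyp2f2 had the largest in mixture females. In vehicle males its values on LFD had a lowest of 15.0, a median of 26.1 and a highest of 42.7 TPM. On HFD they had a lowest of 2.43, a median of 4.72 and a highest of 11.1 TPM. The groups did not overlap, as was the case for 15.6% of all genes. Mean Cdh1 fell from 27.0 ± 11.3 to 5.40 ± 3.26 TPM (SD, n = 6), a 5.0-fold lower level, and the log2 difference was -2.17 (SE 0.29, limma adjusted p = 1.37e-07). It was lower than the LFD mean in 6 of 6 HFD libraries.

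In vehicle females Cdh1 on LFD had a lowest value of 12.0, a median of 16.8 and a highest of 22.3 TPM. On HFD it had a lowest value of 4.44, a median of 5.23 and a highest of 9.05 TPM. Again no library of 1 diet reached those of the other, as for 11.0% of all genes, and the difference was -1.36 (SE 0.29, limma adjusted p = 0.000405). With the mixture the groups overlapped, and the differences were -1.01 (SE 0.29, adjusted p = 0.00495) in males and -0.85 (SE 0.29, adjusted p = 0.0347) in females. The female value with the mixture did not pass when low genes were kept in the test (adjusted p = 0.0737). The diet difference did not pass the test between the sexes, at -0.82 (SE 0.41, adjusted p = 0.174) with vehicle and -0.16 (SE 0.41, adjusted p = 0.830) with the mixture.

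Ordered by mean, Cdh1 ran from LFD vehicle males (27.0 TPM) through LFD mixture males (22.3), LFD vehicle females (16.8), LFD mixture females (15.0), HFD mixture males (11.2), HFD mixture females (7.61) and HFD vehicle females (6.01) to HFD vehicle males (5.40). No neighbours in that order differed by more than the larger of their SDs. All 4 LFD groups stood above all 4 HFD groups.

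Cdh1 is also expressed by bile duct epithelium, and its product binds catenins at the junction. Of 8 junction genes, Cdh1 among them, limma called 2 higher and 1 lower in vehicle males and 0 higher and 2 lower in vehicle females (medians 0.15 and -0.04). With trimmed-mean scaling these counts were 1 and 1 in males and 0 and 3 in females. In mixture males 4 were higher and 1 lower (median 0.19), which scaling moved to 1 and 3 (median -0.02). In mixture females 0 were higher and 1 lower (median -0.06), with and without scaling. Ctnna1, alpha-catenin, differed by 0.29 (SE 0.06, adjusted p = 0.000402) in vehicle males. Afdn, afadin, differed by -0.25 (SE 0.07, adjusted p = 0.00444) in vehicle females. Ctnnb1, beta-catenin, differed by 0.20 (adjusted p = 0.0723) in vehicle males and -0.19 (adjusted p = 0.0927) in vehicle females.

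Markers of bile duct cells were set beside Cdh1. Of 12 such genes 9 were tested: in vehicle males 3 were higher and 0 lower on HFD, and in vehicle females 0 were higher and 1, Sox9, was lower (-0.59, SE 0.19, adjusted p = 0.0143). The summed level of the 12 ranged from 161 to 225 TPM on LFD and from 272 to 378 TPM on HFD in vehicle males. In vehicle females it ranged from 217 to 305 TPM on LFD and from 259 to 347 TPM on HFD. None of the 12 was at 0 throughout a group. Epcam and Krt19, a pair of duct markers named after their values were seen, differed by 0.07 (adjusted p = 0.890) and -0.07 (adjusted p = 0.875) in vehicle males. In mixture males they differed by 0.60 (adjusted p = 0.0588) and 0.80 (SE 0.24, adjusted p = 0.00685), and 5 of the 9 genes were higher and 0 lower there. In mixture females 2 were higher and 0 lower. The part of bile duct transcripts in the Cdh1 differences was not tested. The higher genes in vehicle males were Tm4sf4 (0.88, SE 0.11), Pkhd1 (0.32, SE 0.09) and Spp1 (0.81, SE 0.28), and with scaling 2 were higher. Spp1, osteopontin, is also made by other liver cells.

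**Figure D3:**
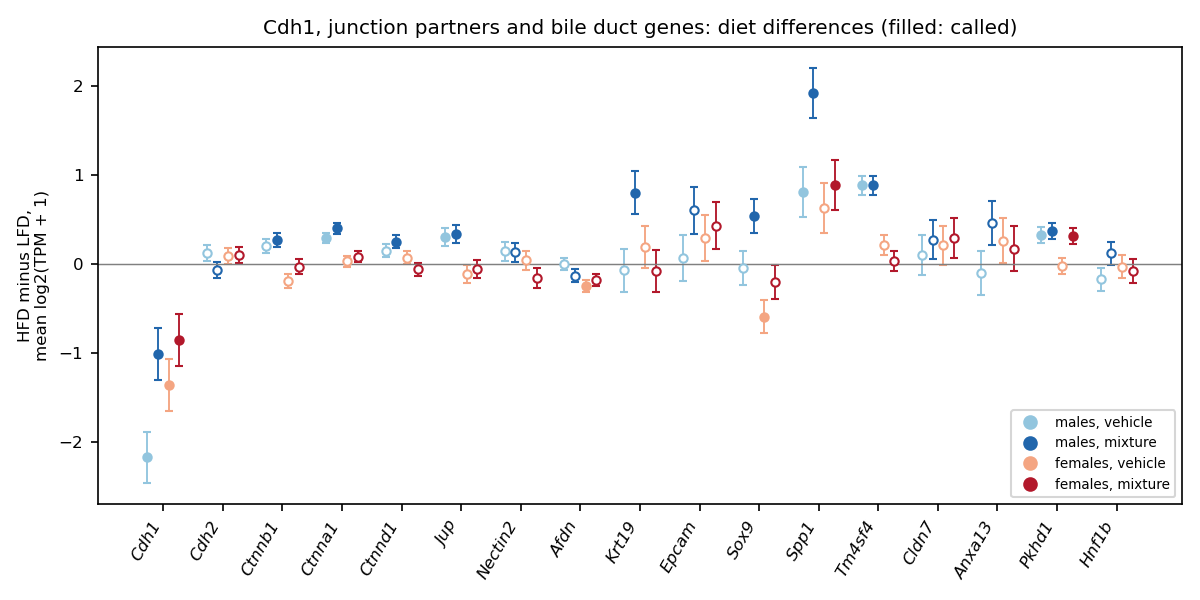
HFD minus LFD differences of mean log2(TPM + 1) are plotted for Cdh1, 7 other junction genes and 9 bile duct genes in the 4 strata of sex and exposure, with bars for the SE and filled points for genes that passed limma's test. Cdh1 lies at -2.17 to -0.85, while Cdh2 lies at 0.12 and 0.09 in the vehicle strata and Spp1 reaches 1.92 in mixture males.

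Among the enzymes, Cyp2f2 differed by diet in females. In vehicle females on LFD it had a lowest value of 290.2, a median of 526 and a highest of 615 TPM. On HFD it had a lowest value of 869, a median of 939.8 and a highest of 1039 TPM. Every HFD library was above every LFD library, and the mean was 1.92-fold higher on HFD, a difference of 0.98 (SE 0.16, limma adjusted p = 6.03e-06). With the mixture the mean was 2.15-fold higher on HFD, again without overlap (9.47% of all genes), and the difference was 1.17 (SE 0.16, adjusted p = 4.74e-07).

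In males Cyp2f2 differed by 0.08 (95% interval -0.24 to 0.40) with vehicle and 0.16 (-0.16 to 0.48) with the mixture, and neither passed the test. With trimmed-mean scaling these values were -0.05 and -0.06. The difference of diet responses between the sexes was itself tested, as the male minus the female response. It was called for Cyp2f2 with vehicle at -0.90 (SE 0.22, adjusted p = 0.00364) and with the mixture at -1.01 (SE 0.22, adjusted p = 0.00141). In this test 1 of the 7 genes passed with vehicle (18.2% of all genes, 3.47% in the same direction) and 2 with the mixture (17.0%, 3.65% in the same direction). The second was Pigr.

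Aldh1b1 and Hsd17b13 were higher on HFD in males. Aldh1b1 in mixture males had a lowest value of 47.5, a median of 70.5 and a highest of 94.7 TPM on LFD. On HFD it had a lowest value of 75.1, a median of 116 and a highest of 129 TPM. The groups overlapped, with HFD libraries of 75.1 and 94.1 TPM below the highest LFD library. The lower of these is the library with 24468 TPM of muscle genes. The difference was 0.63 (SE 0.15, limma adjusted p = 0.000622), and in vehicle males it was 0.41 (SE 0.15, adjusted p = 0.0301). The vehicle value did not pass with trimmed-mean scaling, at 0.27 (adjusted p = 0.187), or with low genes kept in the test (adjusted p = 0.0653). In females Aldh1b1 differed by 0.19 (adjusted p = 0.356) with vehicle and 0.36 (adjusted p = 0.0783) with the mixture. The male minus female response was 0.21 (limma adjusted p = 0.54) with vehicle and 0.27 (adjusted p = 0.401) with the mixture, neither past the test.

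Of 15 aldehyde dehydrogenase genes tested, Aldh1b1 among them, limma called 9 higher and 1 lower on HFD in vehicle males and 7 higher and 4 lower in vehicle females. With scaling the male counts were 6 and 3. Aldh1a1, a cytosolic retinaldehyde dehydrogenase, rose by 1.42 (SE 0.13, adjusted p = 8.05e-12) in vehicle males and by 2.11 (SE 0.13, adjusted p = 3.23e-16) in vehicle females.

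Hsd17b13 in vehicle males had a lowest value of 371, a median of 416 and a highest of 535 TPM on LFD. On HFD it had a lowest value of 449.5, a median of 586 and a highest of 672 TPM. The groups overlapped, and 6 of 6 HFD libraries were above the LFD mean. Its difference was 0.42 (SE 0.13, limma adjusted p = 0.0131) with vehicle and 0.47 (SE 0.13, adjusted p = 0.00433) with the mixture. Both calls were lost with trimmed-mean scaling, at 0.28 (adjusted p = 0.117) and 0.25 (adjusted p = 0.145). In females it differed by 0.31 (adjusted p = 0.0745) and 0.19 (adjusted p = 0.348), and the sexes' diet responses did not differ past the test (0.11, adjusted p = 0.762, with vehicle).

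The neighbouring paralog Hsd17b11 lies at chr5:103989762-104021919, also on the minus strand, and is likewise a lipid droplet protein. It rose on HFD by 0.83 (SE 0.10, adjusted p = 4.86e-09) in vehicle males and by 0.79 (SE 0.10, adjusted p = 2.55e-08) in vehicle females. Near-identical stretches could share reads between such paralogs, and no source used here says how the counting treated them. Of 8 measured Hsd17b genes, 5 were higher and 2 lower on HFD in vehicle males, and 3 were higher and 1 lower in vehicle females. Hsd17b6, the other member of that family among the 7, differed by 0.23 (95% interval -0.39 to 0.84) in vehicle males and -0.04 (-0.65 to 0.58) in vehicle females.

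The diet difference of Pigr had opposite signs in the sexes. Mixture males on LFD had a lowest value of 652, a median of 771 and a highest of 816 TPM. Those on HFD had a lowest value of 421, a median of 511 and a highest of 667 TPM. The groups overlapped, and the difference was -0.50 (SE 0.13, limma adjusted p = 0.00155), with 6 of 6 HFD libraries below the LFD mean. In mixture females the HFD mean was 908 ± 64.5 TPM and the LFD mean 735 ± 101 TPM (SD, n = 6), a difference of 0.31 (SE 0.13, adjusted p = 0.0784).

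The difference between those responses was -0.81 (SE 0.18, adjusted p = 0.00129). With vehicle the male difference was -0.16 (adjusted p = 0.368), the female one 0.31 (adjusted p = 0.0662), and the difference between them -0.47 (SE 0.18, adjusted p = 0.0620), which passed with trimmed-mean scaling (-0.60, adjusted p = 0.0250). Summed B and plasma cell genes were highest in a male LFD vehicle library (365 TPM) and a female HFD vehicle library (158 TPM), and at most 59.8 TPM in the other groups. Their part in the Pigr values was not tested. Ctsc differed by 0.39 (adjusted p = 0.0871) in vehicle males and -0.16 (adjusted p = 0.555) in vehicle females, and did not pass for diet.

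Other genes of the portal zone were taken from a list of 20, all tested. On HFD limma called 3 higher and 5 lower in vehicle males, 0 and 12 in vehicle females, 1 and 14 in mixture males and 0 and 9 in mixture females. With trimmed-mean scaling the counts in vehicle males were 2 and 8, with a median of -0.37. The median differences as deposited were -0.23, -0.49, -0.53 and -0.45, where the medians over all genes were 0.11, -0.01, 0.15 and 0.00. The medians of the 7 members were 0.23, 0.19, 0.19 and 0.19, and with scaling 0.09 in vehicle males and -0.02 in mixture males. Cps1, the first enzyme of the urea cycle, fell by 0.76 (SE 0.18, adjusted p = 0.00107) in vehicle males and by 1.01 (SE 0.18, adjusted p = 3.58e-05) in vehicle females. Ass1, another urea cycle enzyme, fell by 0.87 (SE 0.13, adjusted p = 2.21e-06) in vehicle females. Apoa4, a lipoprotein component, rose by 1.80 (SE 0.33, adjusted p = 3.09e-05) in vehicle males.

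Of 20 pericentral genes, 11 were higher and 3 lower on HFD in vehicle males and 11 were higher and 2 lower in vehicle females, with median differences of 0.38 and 0.37. With trimmed-mean scaling the counts were 7 and 3 in vehicle males (median 0.26) and 10 and 2 in vehicle females (median 0.36). In mixture males 5 were higher and 4 lower (median 0.09, or -0.11 with scaling), and in mixture females 9 were higher and 1 lower (median 0.32). Cyp7a1, which starts bile acid synthesis from cholesterol, rose by 2.51 (SE 0.35, adjusted p = 4.16e-07) in vehicle females. Avpr1a, a vasopressin receptor, fell by 2.09 (SE 0.22, adjusted p = 4.9e-10) in vehicle males.

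The third comparison was males against females within each diet and exposure. Hsd17b6 and Ctsc were lower in males in all 4 strata, Cyp2f2 was higher in males on LFD, and Pigr was lower in males on HFD. On LFD with vehicle 3 of the 7 genes were called (23.7% of all genes), 1 higher in males (6.61%) and 2 lower (17.1%). With LFD and mixture 4 were called (21.5%), 1 higher (4.92%) and 3 lower (16.6%). With HFD and vehicle 3 were called (11.8%), all lower (3.53%), and with HFD and mixture 3 were called (15.3%), all lower (5.56%).

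Without the 3 muscle-rich libraries the last count was 5, through Cyp2f2 (0.43, adjusted p = 0.0380) and Hsd17b13 (0.40, adjusted p = 0.0221), both higher in males. The groups did not overlap for 1, 3, 2 and 3 of the 7 genes in the order above, where 9.59%, 8.74%, 5.94% and 6.85% of all genes did not overlap.

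Hsd17b6 and Ctsc are the pair of members that were lower in males in all 4 strata. The sequences before their annotated starts are shown for that reason. RefSeq promoters (GRCm38.p6) matched 6 of the 7 genes, with 7 start sites. The windows are the 250 bases before the start: chr10:128007612-128007861 on the minus strand for the first of 2 Hsd17b6 sites and chr7:88277835-88278084 on the plus strand for Ctsc, written 5′ to 3′.
Hsd17b6: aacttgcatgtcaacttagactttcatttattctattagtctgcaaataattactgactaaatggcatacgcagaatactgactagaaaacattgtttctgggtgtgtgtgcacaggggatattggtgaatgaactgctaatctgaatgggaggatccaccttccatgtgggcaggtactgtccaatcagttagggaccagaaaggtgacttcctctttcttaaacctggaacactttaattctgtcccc
Ctsc: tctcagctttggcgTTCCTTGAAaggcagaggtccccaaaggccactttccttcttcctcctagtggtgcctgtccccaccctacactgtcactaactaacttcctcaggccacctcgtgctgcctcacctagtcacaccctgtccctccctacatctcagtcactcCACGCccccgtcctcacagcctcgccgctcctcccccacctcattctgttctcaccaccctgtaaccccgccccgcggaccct
Capitals mark matches to the letters searched on both strands, the aryl hydrocarbon receptor core GCGTG, which reads CACGC on the other strand, and the STAT-type palindrome TTCNNNGAA. Ctsc held CACGC 83 bases before the start and TTCCTTGAA 236 bases before it, which do not overlap each other. Of 32851 promoter windows of that length, 28.2% held the first motif and 7.02% the second. The other start sites of the 6 genes held neither. A match is a run of letters and no measured binding.

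Hsd17b6 in vehicle mice on LFD had a lowest value of 44.7, a median of 97.0 and a highest of 192 TPM in males. In females it had a lowest value of 151, a median of 321 and a highest of 462 TPM. The lowest female library, at 151 TPM, is the library with 9145 TPM of muscle genes, and it lay below the highest male. The male mean was 2.97-fold lower, a difference of -1.64 (SE 0.30, limma adjusted p = 5.39e-05). The difference was -1.38 (adjusted p = 0.00136) on HFD with vehicle, -1.55 (adjusted p = 0.000170) on LFD with the mixture and -1.09 (adjusted p = 0.00936) on HFD with the mixture. Male libraries were below the female mean in 6 of 6 cases in each stratum.

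By mean, the 4 female groups (302 to 361 TPM) stood above the 4 male groups (105 to 136 TPM). Among the neighbours in the order of Hsd17b6 means, the step from HFD mixture females (302 TPM) to HFD mixture males (136 TPM) was larger than both SDs, and no other step was. Of 8 Hsd17b genes tested, limma called 2 higher and 1 lower in males on LFD with vehicle, and again 2 and 1 on HFD with vehicle. The lower gene was Hsd17b6 in both. Hsd17b12, which acts in fatty acid elongation, was higher in males on HFD with vehicle by 0.64 (SE 0.12, adjusted p = 0.000129).

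Ctsc in vehicle mice on LFD had a lowest value of 13.9, a median of 22.1 and a highest of 38.1 TPM in males. In females it had a lowest value of 37.7, a median of 54.1 and a highest of 74.9 TPM. The groups overlapped by 1 male library only, and the difference was -1.20 (SE 0.17, limma adjusted p = 8.84e-07). On HFD with vehicle the male values (27.3 to 35.5 TPM) lay below the female values (37.9 to 62.8 TPM) without overlap, and the difference was -0.65 (SE 0.17, adjusted p = 0.00954). With the mixture the differences were -1.13 (adjusted p = 3.41e-06) on LFD and -0.81 (adjusted p = 0.000762) on HFD, both without overlap. In the order of Ctsc means the female groups (47.8 to 55.1 TPM) again stood above the male groups (23.5 to 30.1 TPM). The steps larger than both SDs were those from HFD vehicle females to HFD mixture males and from HFD vehicle males (29.8 TPM) to LFD mixture males (23.7 TPM).

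Ctsc is expressed by macrophages as well as hepatocytes. Of 14 macrophage genes, limma called 0 higher and 11 lower in males on LFD with vehicle (median -0.78) and 1 higher and 1 lower on HFD with vehicle (median -0.07). With the mixture it called 0 and 11 on LFD (median -0.85) and 2 and 3 on HFD (median -0.45). Summed over the 14 genes, LFD vehicle males ranged from 386 to 883 TPM and LFD vehicle females from 698 to 1839 TPM. HFD vehicle males ranged from 762 to 1133 TPM and HFD vehicle females from 767 to 1252 TPM. None of the 14 genes was at 0 throughout a group. With vehicle, the macrophage sums of the sexes overlapped on both diets, and Ctsc values overlapped on LFD only. The part of macrophage transcripts in the Ctsc differences was not tested on either diet. Clec4f, a marker of Kupffer cells, differed by -0.97 (SE 0.17, adjusted p = 3.2e-05) on LFD and -0.49 (SE 0.17, adjusted p = 0.0561) on HFD, with vehicle.

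**Figure D4:**
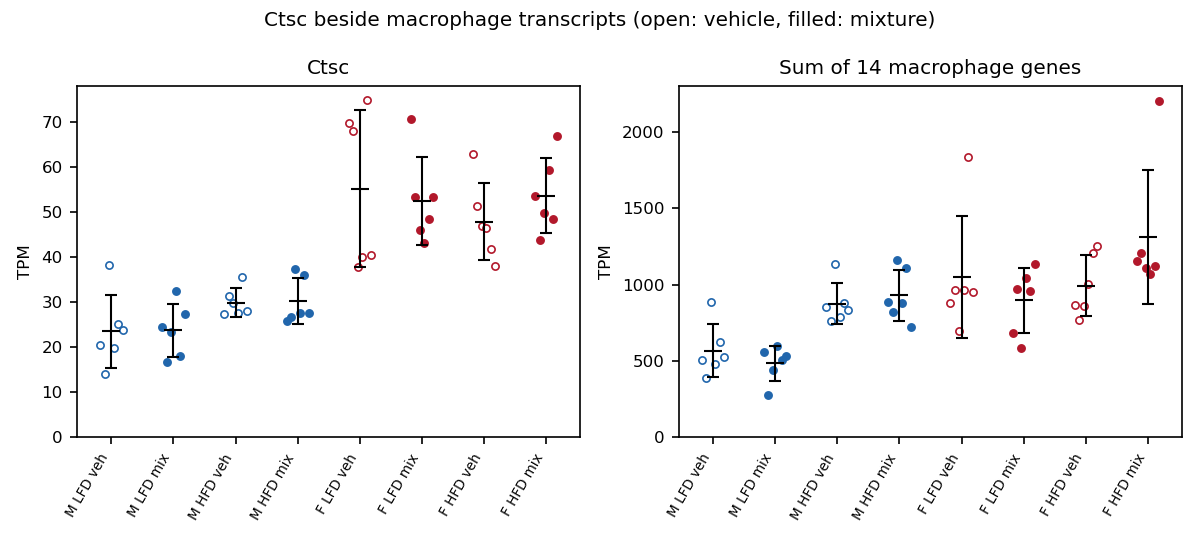
The panels plot Ctsc and the sum of 14 macrophage genes in TPM for each of the 48 libraries by group, with the mean and SD (n = 6). HFD vehicle males and females overlap in the macrophage sum (762 to 1133 and 767 to 1252 TPM) and do not overlap in Ctsc (27.3 to 35.5 and 37.9 to 62.8 TPM). The median male minus female log2 difference of the 14 genes was -0.07 there. It was -0.78 on LFD with vehicle, -0.85 on LFD with the mixture and -0.45 on HFD with the mixture. The part of macrophage transcripts in the Ctsc differences was not tested.

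Of 13 cathepsin genes, Ctsc among them, 1 was higher and 5 lower in males on LFD with vehicle, and 1 was higher and 4 lower on HFD with vehicle. Ctsd, a lysosomal aspartic protease, differed by -0.51 (SE 0.09, adjusted p = 4.71e-05) on LFD with vehicle. Ctse, another aspartic protease, differed by 0.68 (SE 0.16, adjusted p = 0.00303) on HFD with vehicle.

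Cyp2f2 in vehicle mice on LFD had a lowest value of 878, a median of 1194 and a highest of 1619 TPM in males. In females it had a lowest value of 290.2, a median of 526 and a highest of 615 TPM. No female library reached the lowest male, the male mean was 2.39-fold higher and the difference was 1.28 (SE 0.16, limma adjusted p = 2.45e-08). With the mixture the mean was 2.51-fold higher in males, a difference of 1.37 (SE 0.16, adjusted p = 5.27e-09). On HFD with vehicle the groups did not overlap (1074 to 1393 TPM in males, 869 to 1039 TPM in females). The difference of 0.37 (SE 0.16, 95% interval 0.05 to 0.69) had an unadjusted p of 0.0228 and an adjusted p of 0.124. It passed in a fit of those 2 groups alone (adjusted p = 0.0111).

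Ordered by mean, Cyp2f2 ran from HFD mixture males (1278 TPM) through the other male groups (1230.2, 1178 and 1144 TPM) and HFD females (981 and 946 TPM) to LFD females (493 and 456 TPM). The step from HFD vehicle females to LFD vehicle females was larger than both SDs and the others were not.

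Pigr was 1.43-fold lower in males on HFD with vehicle (643 ± 58.6 against 919.8 ± 165 TPM, SD, n = 6), a difference of -0.50 (SE 0.13, limma adjusted p = 0.00568), and the groups overlapped. On HFD with the mixture male values (421 to 667 TPM) lay below female values (778 to 948 TPM) without overlap, and the difference was -0.77 (SE 0.13, adjusted p = 1.56e-05). On LFD the differences were -0.03 (95% interval -0.29 to 0.22) with vehicle and 0.04 (-0.21 to 0.30) with the mixture. By mean, both HFD female groups (919.8 and 908 TPM) stood first, the 4 LFD groups (731 to 754 TPM) followed, and HFD males (643 and 540.0 TPM) stood last. The step from HFD mixture females to LFD mixture males was larger than both SDs and the others were not.

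Aldh1b1 was lower in males on LFD with the mixture (log2 difference -0.53, SE 0.15, limma adjusted p = 0.00732), a call lost with trimmed-mean scaling (-0.38, adjusted p = 0.0665). In the other strata it differed by -0.38 (adjusted p = 0.0517), -0.17 (adjusted p = 0.527) and -0.26 (adjusted p = 0.246) on LFD vehicle, HFD vehicle and HFD mixture. Its group means ran from 70.6 TPM in LFD mixture males to 129.9 TPM in HFD mixture females. Hsd17b13 did not pass in any stratum, at -0.05, 0.06, 0.01 and 0.29 for LFD vehicle, HFD vehicle, LFD mixture and HFD mixture. Its group means ran from 428 TPM in LFD vehicle males to 666 TPM in HFD mixture males. No step between neighbours in the order of either gene was larger than both SDs. Cdh1 differed between the sexes by 0.58 (adjusted p = 0.153) on LFD with vehicle and -0.24 (adjusted p = 0.687) on HFD with vehicle.

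For the 20 other portal genes limma called 0 higher and 8 lower in males on LFD with vehicle (median -0.40) and 1 higher and 0 lower on HFD with vehicle (median -0.01). With the mixture it called 1 and 4 on LFD (median -0.13) and 1 and 7 on HFD (median -0.29). Under trimmed-mean scaling the counts with vehicle were 1 and 5 on LFD (median -0.29) and 1 and 0 on HFD (median -0.05). With the mixture they were 2 and 0 on LFD (median 0.02) and 1 and 9 on HFD (median -0.36). As deposited, the medians over all genes were -0.09, 0.04, -0.11 and 0.04 for LFD vehicle, HFD vehicle, LFD mixture and HFD mixture. Arg1, the last enzyme of the urea cycle, differed by -0.61 (SE 0.10, adjusted p = 1.21e-05) on LFD with vehicle, and Mfsd2a, a lipid transporter, by -1.41 (SE 0.24, adjusted p = 1.49e-05).

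Within groups, several members varied together from library to library. After each group's mean was removed, Pearson's r of log2(TPM + 1) over 48 libraries was 0.66 for Cyp2f2 with Ctsc, 0.62 for Cyp2f2 with Pigr, 0.61 for Cyp2f2 with Hsd17b6 and 0.59 for Hsd17b6 with Pigr. Spearman's rho for those pairs was 0.58, 0.60, 0.58 and 0.57, and r without the 3 muscle-rich libraries was 0.63, 0.68, 0.53 and 0.60. Cdh1 reached 0.54 with Ctsc. Hsd17b13 and Aldh1b1 had lower values with the other members, from -0.09 for Hsd17b13 with Pigr to 0.40 for the pair itself, which was 0.27 without the muscle-rich libraries. Aldh1b1 reached 0.38 with Cdh1. Values of 1 library share its composition and scaling, so these correlations are a description.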

How the data were processed

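Poly(A) RNA of 48 livers was sequenced, 6 in each of 8 groups; per the labels' protocols, extraction used an RNeasy plus mini kit and the pre-made libraries are credited to Azenta. The tools named, per the submitters' processing notes, are STAR 2.5.2b, Trimmomatic 0.36, FastQC and DESeq2, on the build GRCm38, with no role or order. The read counter, annotation, gene lengths and strand setting were not given in the sources available here. The authors deposited TPM, 1 column a library, with no pooling. Each column summed to 1000000, so the values keep no depth, the depth of each library is unknown and no interval that needs it was computed. Libraries held 13180 to 14713 genes at 1 TPM or more.

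limma 3.58.1 (R 4.3.3) was run on log2(TPM + 1). The filter kept 15820 genes that reached 1 TPM in 6 or more libraries. The model had 8 group means over all 48 libraries, which left 40 residual degrees of freedom. Its 17 comparisons were each adjusted by the Benjamini-Hochberg method at 0.05. Because the table holds no counts, no count test was run. The fit was tested on simulated data with known changes in 1 group. For diet in vehicle males it recovered 82.1% of 1.5-fold and 95.5% of 2-fold changes, with 6 false calls. For diet in vehicle females it recovered 83.6% and 94%, with 8 false calls. The simulated libraries had independent noise and no shift in composition, so they cannot show how the calls depend on scaling.

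The members and the gene lists were chosen with earlier results of these data known. The plan was to name all 7 members in each comparison, other genes by list counts with up to 4 a list by smallest p, and paralogs of members. It was not kept throughout. Epcam and Krt19 were named after their values were seen. For diet in vehicle males, Ctnnb1 (limma unadjusted p = 0.0248) was named and Jup (0.30, unadjusted p = 0.00526) was not. Alternatives were trimmed-mean scaling, no filter, 0.1 as the pseudocount, fitting the compared groups alone, a replicate block, and leaving out libraries over 1000 or over 300 TPM of muscle genes. Gene positions are from GENCODE M21 (GRCm38) and promoters from RefSeq (GRCm38.p6). Some of the genes most similar to a member are not reported here.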

Additional observations from a re-analysis of the deposited data

Results flagged for a closer look

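In each of 56 combinations of gene and group, the gap of the highest or lowest library to its nearest neighbour was set against the range of the 6 libraries, and a share over 0.625 was taken as far from the others, which chance gives in about 1 of 20 groups. In LFD mixture females, 1 library (replicate 1) was highest for Cyp2f2, at 771 TPM where the next was 489 TPM (share 0.646), and for Ctsc, at 70.6 TPM where the next was 53.3 TPM (share 0.629). For Hsd17b13, 1 LFD vehicle female library (replicate 5) reached 624 TPM (next 448 TPM, share 0.651). For Aldh1b1, 1 HFD mixture female library (replicate 4) reached 159 TPM (next 131 TPM, share 0.626). For Pigr, 1 HFD mixture female library (replicate 2) was lowest at 778 TPM (next 921 TPM, share 0.836).

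A diet response that differed between the sexes was found for Cyp2f2, with a male minus female difference of -0.90 with vehicle and -1.01 with the mixture, and for Pigr with the mixture, at -0.81, each by limma's test of the difference itself.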

How the results depend on the processing

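Of 119 differences of the 7 genes tested, 27 passed the test, and 22 of these passed under all 7 alternatives. Counting each alternative separately, the sign was reversed in 19 cases, all of them for differences that had not passed. The number of the 7 genes called changed by more than 1.5 times in few cases: with trimmed-mean scaling from 3 to 1 for diet in vehicle males and from 1 to 2 for the sex difference in diet response with vehicle, for diet in mixture females from 2 to 1 without the filter and to 4 with only the groups compared, and for sex on HFD with the mixture from 3 to 5 without the libraries over 1000 TPM, and likewise over 300 TPM, of muscle genes. In mixture females the 2 added genes were Aldh1b1 (0.36, adjusted p = 0.0433) and Pigr (0.31, adjusted p = 0.0245). Over all genes, the count for the mixture moved in LFD females from 6 to 3 and for the mean from 15 to 8 with scaling, in LFD males from 6 to 3 and in HFD males from 15 to 1 with only the groups compared, in HFD males to 47 or 55 without the libraries over 1000 or 300 TPM of muscle genes, and in HFD females from 2 to 4 without those over 1000 TPM. For the mixture response between diets in males the 1 gene became 2 without the filter, 4 with the replicate block, and 12 or 8 without those libraries. Replicate numbers are shared by the groups, but the labels do not say that they pair mice. The numbers in the library names often differ between LFD and HFD libraries of the same replicate number. They never match between sexes or between exposures. Libraries of different groups with the same replicate number had a median r of 0.0131 (168 pairs, -0.207 to 0.438). Pairs with different replicate numbers had a median r of -0.00505 (840 pairs). Of 48 libraries, 14 correlated best with their own replicate number, a count that was not set against chance, so a pairing is not excluded. With the replicate block, 1 further difference passed, Aldh1b1 for sex on LFD with vehicle (-0.38, adjusted p = 0.0370), and no call was lost. TPM keep no depth, so the counting error of low genes such as Cdh1 could not be set against the spread.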

Other observations

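For each member, tested genes among those with the most similar profile were listed by Pearson's r of log2(TPM + 1) over 48 libraries, which share diet, sex and library composition, so the values are a description. For Cyp2f2 these were Cyp4v3 (r = 0.92), Clu (0.92) and Dock8 (0.89). For Cdh1 they included Plxnb1 (0.83) and Adgrf1 (0.83), and they were for Hsd17b13 Tmem176b (0.83), Spp1 (0.81) and Sprr1a (0.81). For Hsd17b6 they were Lbp (0.84), Slc22a26 (0.83) and Cyp2c69 (0.83). Ctsc was most like Qpct (0.87), Slc22a26 (0.86) and A1bg (0.86), and Pigr was most like Lipc (0.81), Serpind1 (0.80) and Hbs1l (0.79). Genes similar to Aldh1b1 included Abcg3 (0.78) and Cyp3a59 (0.75).

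With each group's mean removed, other genes came first for most members. For Cdh1 these were Myo6 (0.78), Alcam (0.78) and Marveld2 (0.76), of which Alcam is an adhesion molecule and Marveld2 a tight junction protein. For Cyp2f2 they were Qsox1 (0.74), Cfb (0.73) and Nectin3 (0.72), and for Hsd17b6 Nectin3 (0.73), Slc17a2 (0.72) and Glud1 (0.69). For Ctsc they were Cfi (0.76), Il13ra1 (0.71) and Adgre4 (0.71), and for Pigr Serpind1 (0.83), C3 (0.76) and Cyp2c23 (0.76). Cfb, Cfi and C3 are genes of the complement system. For Hsd17b13 they were Casp6 (0.76), Sprr1a (0.71) and Tmem176b (0.71), of which Sprr1a and Tmem176b were also listed above with group means kept. For Aldh1b1 they were Nadsyn1 (0.65), Smpd3 (0.65) and Exoc3l4 (0.63).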
